A study of Mus musculus with 28 samples.

Results

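Cyp2e1, the cytochrome P450 that oxidises ethanol and acetaminophen in liver, was lower in tumour than in the tissue around it in all 14 pairs of these mice, but by very different amounts. The pairs at both ends of that range are compared here. For each pair the change was taken as log2(CPM + 1) of Cyp2e1 in tumour minus the same value in peritumour tissue, where CPM is counts per 1000000 of the library total. The pairs were thus chosen by the Cyp2e1 change itself. The 5 with the lowest values are called strong-loss pairs and the 5 with the highest values weak-loss pairs. Together they hold 10 of the 14 pairs and 20 of the 28 libraries. The other 4 pairs lie between them.

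All 28 libraries come from livers of c-Myc/Alb-cre mice. Alb-cre is a Cre recombinase under the albumin promoter, which is active in hepatocytes, and c-Myc is the oncogenic transcription factor. Tumour (hepatocellular carcinoma) and peritumour tissue share this genotype, so the peritumour tissue is not normal liver. The labels give no age. They mark 11 pairs with the letter F and 3 with the letter M, without saying what the letters mean. Each pair shares a sample code, which was taken as the animal. The strong-loss pairs are F replicates 5, 6, 7 and 9 and M replicate 2, and the weak-loss pairs are F replicates 2, 3, 8 and 11 and M replicate 1. They are written F5, M2 and so on below. The sample codes come in 2 styles, treated as a possible batch: 1 strong-loss pair (M2) and 3 weak-loss pairs (F2, F3 and M1) have the first style. Library totals over all samples ran from 14777567 to 17576921 estimated counts.

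As background, hepatocytes divide their work along the liver lobule. Those next to the central vein (pericentral) carry most of the P450 enzymes that modify drugs and fats, as well as glutamine synthetase, and they are kept in that state by Wnt and beta-catenin signals from the vein. Those next to the portal tract (periportal) make urea and glucose. Cyp2e1 is a standard pericentral marker. P450 genes of other families answer to nuclear receptors, among them CAR, encoded by Nr1i3.

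Cyp2e1 (gene ID 13106) lies on chromosome 7 at 140763832 to 140774981 on the forward strand of GRCm38, by the deposited table. Its promoter and that of Cyp1a2, a pericentral P450 that fell with it in the strong-loss pairs, are shown so that both can be seen as sequence. They are the 250 bases before the start that RefSeq (GRCm38.p6) gives each gene, which for Cyp2e1 lies upstream of the start in the deposited table, read 5′ to 3′ on the gene's strand, with a TATA box (TATAAA) in capitals.
Cyp2e1, chr7:140763569-140763818, forward strand: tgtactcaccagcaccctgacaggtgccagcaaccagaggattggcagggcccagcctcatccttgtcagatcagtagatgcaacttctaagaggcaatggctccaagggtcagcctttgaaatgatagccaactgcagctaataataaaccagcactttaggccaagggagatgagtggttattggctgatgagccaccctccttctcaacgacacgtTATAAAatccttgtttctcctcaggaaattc
Cyp1a2, chr9:57683656-57683905, reverse strand: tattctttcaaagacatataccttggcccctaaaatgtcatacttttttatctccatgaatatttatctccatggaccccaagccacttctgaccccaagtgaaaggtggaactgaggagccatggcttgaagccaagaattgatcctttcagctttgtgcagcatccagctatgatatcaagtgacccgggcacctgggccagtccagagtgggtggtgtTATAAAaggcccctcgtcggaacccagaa
TATAAA begins 31 bases before the RefSeq start of Cyp2e1 and 29 before that of Cyp1a2, and 7.59% of 32851 mouse promoters of this length hold it on the gene's strand. For the TCF/LEF core only the letters CTTTGAT were searched (in 3.21% of promoters on either strand), and they are in neither window. The related letters CTTTGAA are in the Cyp2e1 window and, on the opposite strand, in the Cyp1a2 window. How many promoters hold CTTTGAA was not counted, so a TCF/LEF site is not excluded in either window. The TATA box was searched after earlier searches gave no match.

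The values that chose the pairs are given as a description, without a test. Among the strong-loss pairs, Cyp2e1 went from 964 CPM in peritumour to 125 CPM in tumour tissue in M2, from 2200 to 456 in F7 and from 2503 to 523 in F9. It went from 108 to 24.4 CPM in F5 and from 1055 to 308 CPM in F6. The differences were -2.94, -2.27, -2.26, -2.11 and -1.77 in that order, with a mean of -2.27 ± 0.42 (SD, n = 5). Among the weak-loss pairs it went from 528 to 283 CPM in F2, from 1507 to 869 in F11 and from 2226 to 1292 in F8. It went from 1093 to 772 CPM in M1 and from 930 to 850 CPM in F3. These differences were -0.90, -0.79, -0.78, -0.50 and -0.13, with a mean of -0.62 ± 0.31 (SD, n = 5).

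Neither tissue alone separates the classes. Peritumour Cyp2e1 averaged 1366 ± 978 CPM in strong-loss and 1257 ± 646 CPM in weak-loss pairs (SD, n = 5 each), and the 2 ranges overlapped. Tumour Cyp2e1 averaged 287 ± 212 and 813 ± 360 CPM (SD, n = 5 each), and here too the ranges overlapped, since the F2 tumour lay below 3 of the strong-loss tumours. F5 was low in both tissues. Per length, Cyp2e1 ranked between 289 and 4944 among the genes of a strong-loss tumour by TPM, and between 137 and 489 in a weak-loss tumour. The pairs just outside the classes were F1 at -1.44, beside F6 at -1.77, and F4 at -1.02, beside F2 at -0.90. With TMM scaling, which corrects library totals for differences in composition, F2 moved from -0.90 to -1.30 and left the weak class for F4, and the other 9 pairs kept their class.

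**Figure D1:**
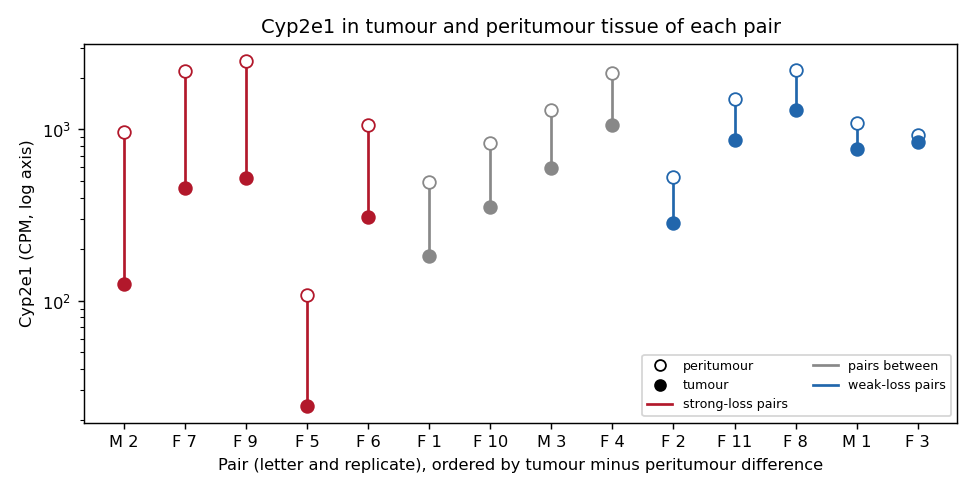
Cyp2e1 in CPM (log axis) in peritumour (open) and tumour tissue (filled) of each of the 14 pairs, ordered by the difference between them. The line between the points is longest in M2 (964 to 125 CPM) and shortest in F3 (930 to 850 CPM), and levels within both classes overlap.

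Libraries that stand apart were looked for before other genes were compared. The F2 tumour had the lowest summed level of the hepatocyte secreted and identity list, 47106 CPM against 71377 to 103398 CPM in the other 9 tumours, and the highest sum of cholangiocyte and progenitor markers, 3433 CPM against 409 to 922 CPM. Transcripts of red cell precursors summed to 3309 CPM in the F5 peritumour, 2709 in the F6 tumour and 2522 in the F2 peritumour library. F5 and F6 are strong-loss pairs and F2 is a weak-loss pair, and results are given without these 3 pairs where that changes them. In bulk tissue, fewer cells of a type and less RNA per cell cannot be told apart.

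The first question was which other genes fell more, or less, in the pairs with the strong Cyp2e1 loss. In edgeR's quasi-likelihood test with the pair as a block, no gene of 13708 passed an adjusted p of 0.05, so 0% were called in either direction, and DESeq2 called 10 genes. At an unadjusted p under 0.05, 1.71% of all genes were lower and 1.48% higher in the strong-loss pairs (235 and 203 genes). A p in this comparison says only whether a gene's change went with that of Cyp2e1 over these pairs. The lists below are therefore described by counts and medians beside those of all genes, whose median difference was -0.01. Of all 13708 genes, 7118 had a difference below 0 and 6590 above it. Members of a list share the same 10 pairs, so their signs are not independent.

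Most P450 enzymes dropped further in the strong-loss pairs, as Cyp2e1 did. All 34 listed members passed the filter on low counts. Of these, 26 had a difference below 0, 16 of them at an unadjusted p under 0.05, and 1 was higher at that level. The median fitted log2 fold change of tumour over peritumour was -1.38 in strong-loss pairs, -0.71 in weak-loss pairs and -0.85 for the difference. In 6 members (Cyp1a2, Cyp2a5, Cyp2c29, Cyp2c37, Cyp4a10 and Cyp4a14) every strong-loss pair lay below every weak-loss pair, which held for 0.336% of all genes. In log2(CPM + 1), 20 members were below 0 in all 5 strong-loss pairs and 15 in all 5 weak-loss pairs, beside 7.54% and 3.76% of all genes. Without the pair as a block, 3 members were lower at an unadjusted p under 0.05.

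Cyp1a2, the P450 that metabolises caffeine, went from 83.5 to 13.7 CPM in M2, from 303 to 67.9 in F7, from 300 to 88.6 in F9, from 16.7 to 6.70 in F5 and from 71.2 to 19.1 in F6. In the weak-loss pairs it went from 121 to 62.4 CPM in F2, from 256 to 150 in F11, from 328 to 198 in F8, from 148 to 87.6 in M1 and from 206 to 136 in F3. It was thus lower in tumour in all 10 pairs, and the strong-loss differences (-2.52 to -1.20) lay below the weak-loss ones (-0.95 to -0.59). The fitted difference between the classes was -1.17 ± 0.24 on the log2 scale (SE), adjusted p = 1.0 with edgeR and 0.0101 with DESeq2.

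Cyp2c37, an arachidonic acid epoxygenase, showed a wider gap. Its differences were -3.42, -2.95, -2.33, -2.43 and -1.65 in M2, F7, F9, F5 and F6, and -0.98, -0.70, -0.80, -0.52 and -0.00 in F2, F11, F8, M1 and F3. The fitted difference was -2.12 ± 0.37 (SE), adjusted p = 0.588 with edgeR and 0.000248 with DESeq2. Cyp4a10 and Cyp4a14, fatty acid omega-hydroxylases that answer to PPAR-alpha, differed by -1.23 ± 0.29 and -1.46 ± 0.35. Cyp2a5, which oxidises nicotine and coumarin, differed by -1.74 ± 0.67 and ranged from -5.32 in M2 to -1.29 in F6 among strong-loss pairs. Cyp2c29 differed by -1.44 ± 0.40 and Cyp2b10, the classical CAR target, by -2.56 ± 0.81. Cyp17a1, a steroid hydroxylase, was the member on the other side, at 1.43 ± 0.46. Genes of the Cyp2c and Cyp4a families have near-identical copies, so how their reads were divided among copies is uncertain.

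In every P450 member tested apart from the 6 named above, the classes overlapped, and some examples follow. Cyp2f2, a periportal P450, was at 0.14 to 0.63 in 4 strong-loss pairs and at -2.85 in F6. Its values in weak-loss pairs ran from -1.47 to 0.41, and the classes overlapped. Cyp3a13 ran from -0.74 to -0.06 in strong-loss and from -0.93 to -0.02 in weak-loss pairs. Por, the reductase that supplies electrons to all microsomal P450 enzymes, ran from -0.93 to -0.25 in strong-loss and from -0.73 to 0.65 in weak-loss pairs.

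**Figure D2:**
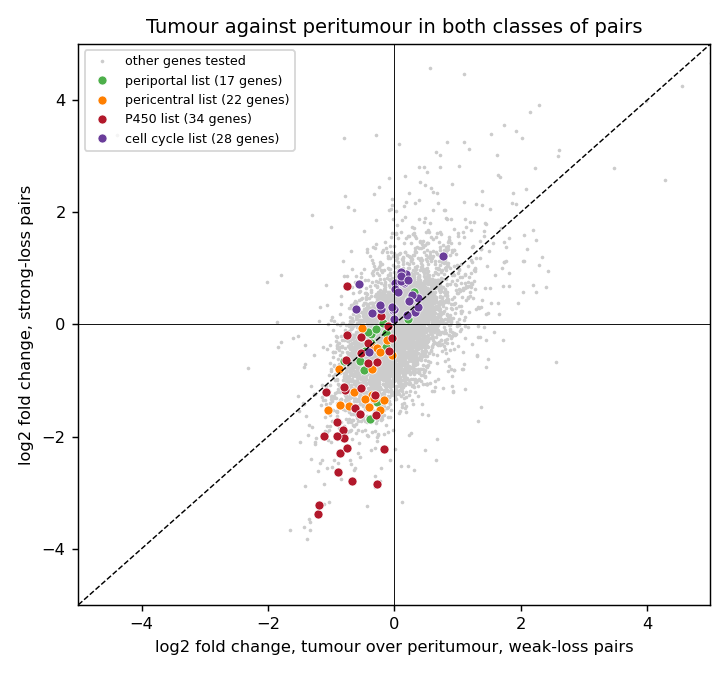
Fitted log2 fold change of tumour over peritumour tissue in weak-loss pairs (horizontal) and strong-loss pairs (vertical) for each gene tested, with 4 gene lists in colour and the line of equal change dashed. Most P450 members lie below the line (median -1.38 against -0.71), cell cycle members above it (0.50 against 0.11), and periportal members along it (-0.23 against -0.37).

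Nr1i3, the nuclear receptor CAR, which drives Cyp2b and Cyp2c genes, fell in the strong-loss pairs, while its differences lay between -0.41 and 0.19 in 4 of the 5 weak-loss pairs. It lies on chromosome 1 at 171213932 to 171218845. It went from 62.7 to 13.1 CPM in M2, from 63.6 to 29.0 in F7, from 55.4 to 23.5 in F9, from 49.3 to 20.3 in F5 and from 67.5 to 16.9 in F6. In weak-loss pairs it went from 48.2 to 21.4 CPM in F2, from 50.3 to 47.1 in F11, from 66.3 to 49.7 in F8, from 61.0 to 64.0 in M1 and from 49.7 to 56.8 in F3. F2 is the weak-loss pair whose value reaches into the strong-loss range. The fitted difference was -1.28 ± 0.35 (SE, adjusted p = 1.0, edgeR). Within the strong-loss pairs the fold change was -1.61 ± 0.25 (SE, adjusted p = 0.0116, edgeR). Of the 18 xenobiotic and lipid sensing receptors tested, 8 had a difference below 0 and 10 above it, with a median of 0.02, and Nr1i3 was the 1 lower at an unadjusted p under 0.05, beside 1.71% of all genes. Ahr, the aryl hydrocarbon receptor, which drives Cyp1a2, was at -1.31 in strong-loss and -0.32 in weak-loss pairs, with a fitted difference of -0.99 ± 0.50 (SE, adjusted p = 1.0, edgeR).

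Pericentral genes, too, mostly had a larger drop in the strong-loss pairs. Of 22 members, 20 had a difference below 0 and 9 were lower at an unadjusted p under 0.05, beside 1.71% of all genes, with a median difference of -0.66. A total of 3 members are P450 genes counted above. Among the others, the glutamate transporter Slc1a2 differed by -1.31 ± 0.45, the vitamin C synthesis gene Gulo by -1.08 ± 0.39, the ammonium transporter Rhbg by -0.98 ± 0.29, ornithine aminotransferase Oat by -0.90 ± 0.41 and the transcription factor Tbx3 by -0.74 ± 0.26 (log2 ± SE). Slc1a2 and Rhbg were low, with means of 3.61 and 5.89 CPM over the 20 libraries. Without F2, F5 and F6 the list median was -1.15 with 15 members lower at an unadjusted p under 0.05. Among pairs of the second code style alone, an alternative added after the data were seen, the median was -0.44 with 5 members lower, and without F3 the count was also 5.

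Glul, which encodes glutamine synthetase and marks the innermost ring of pericentral hepatocytes, showed how the strong-loss pairs split. Its differences were -0.95, -0.98 and -0.89 in M2, F7 and F9, but -0.09 in F5 and 0.32 in F6. In weak-loss pairs they were 0.34 in F2, -0.56 in F11, -0.04 in F8, 0.02 in M1 and 0.36 in F3, so the classes overlapped. The fitted difference was -0.52 ± 0.26 (SE, adjusted p = 1.0, edgeR). Oat split the same way, at -2.22, -1.78 and -1.65 in M2, F7 and F9 against -0.51 in F5 and 0.21 in F6. Axin2, a feedback inhibitor that reads out Wnt signalling, was at -1.89, -1.53 and -1.08 in M2, F7 and F9, at -0.74 in F6 and at 0.13 in F5, while F2 stood at 1.21. F5 and F6, where Glul was near or above 0, are the strong-loss pairs with the high red cell precursor sums, and the part of those cells in this split was not tested.

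Of 10 Wnt and beta-catenin feedback targets tested, 3 were lower at an unadjusted p under 0.05, beside 1.71% of all genes. Tbx3, lower at that level, is in this list and in the pericentral list. Axin2 is a pericentral member too, so this count is not separate from the pericentral one. The median difference was -0.71. Axin2 differed by -1.18 ± 0.53 (SE, adjusted p = 1.0, edgeR) at a mean of a few CPM. For 19 Wnt ligands, R-spondins and core pathway genes, the median was -0.13 and none passed that level in either direction. For periportal genes the median was -0.23 in strong-loss and -0.37 in weak-loss pairs, with a difference of 0.05. A total of 2 of 17 were lower at an unadjusted p under 0.05, beside 1.71% of all genes. These were Pck1, the gluconeogenic enzyme (-1.31 ± 0.47), and Pigr, the receptor that carries IgA across epithelia (-2.16 to 0.05 in strong-loss and -0.77 to 0.30 in weak-loss pairs). The median difference turned to -0.41 in the second code style alone, to -0.25 when pairs were ranked with TMM scaling and to -0.17 without F2.

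Male-biased liver genes, which include the major urinary proteins, had a median difference of -0.83. Of 16 members 13 were below 0, and 5 were lower at an unadjusted p under 0.05, beside 1.71% of all genes: Mup10 (-2.45 ± 0.65), Mup11, Mup20 (-1.28 ± 0.38) and the P450 genes Cyp2d9 (-0.86 ± 0.30) and Cyp7b1, which are also in the P450 list. The urinary protein genes have near-identical copies, so their values are uncertain in the same way. Bile acid synthesis and transport genes had a median of -0.31 with 14 of 16 below 0, and the 3 lower at that level (Cyp7a1, Cyp27a1 and Cyp7b1) are again P450 genes. Phase II conjugation enzymes, which attach glutathione, sugar or sulfate to drugs, had a median of -0.28 with 18 of 24 below 0 and 2 lower at that level. Retinoid handling genes had a median of -0.21 with 12 of 17 below 0 and 3 lower (Rdh16, Aldh1a1 and Cyp26a1).

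In several other hepatocyte lists the median lay nearer 0. Hepatocyte transcription factors had a median difference of 0.14 over 18 genes and secreted and identity genes of 0.11 over 27. Urea cycle genes had a median of 0.01 over 12 and fatty acid oxidation genes of 0.03 over 21. In each of these 4 lists 1 member was lower at an unadjusted p under 0.05, beside 1.71% of all genes. In the first 2 of them 1 was higher, beside 1.48% of all genes. Hnf4a, the master regulator of hepatocyte identity, ran from -0.13 to 0.33 in strong-loss and from -0.86 to 0.52 in weak-loss pairs. Albumin, whose promoter drives the Cre, ran from -0.63 to 0.99 and from -1.20 to -0.13. Among other enzymes of ethanol and aldehyde oxidation, 1 of 12 (Aldh1a1, at -0.79 ± 0.30) was lower at an unadjusted p under 0.05, beside 1.71% of all genes. The main alcohol dehydrogenase Adh1 ran from -0.94 to 0.06 in strong-loss and from -1.12 to 0.14 in weak-loss pairs.

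**Figure D3:**
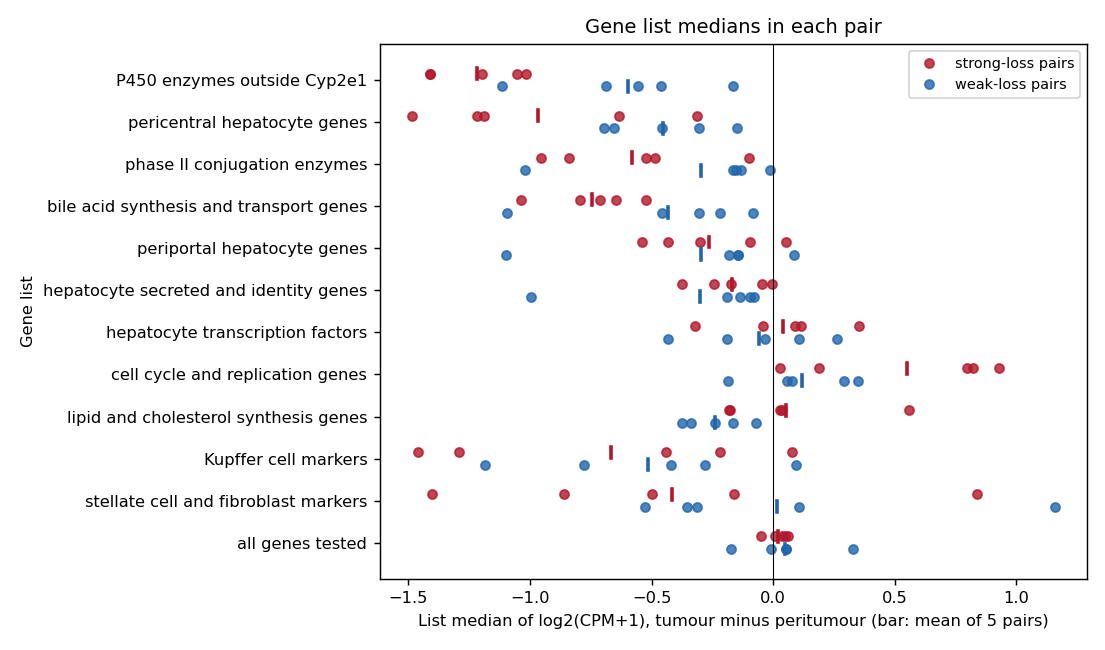
Median over the genes of each list of log2(CPM+1) in tumour minus peritumour tissue, 1 point per strong-loss (red) or weak-loss pair (blue), with the mean of 5 pairs as a bar. P450 medians ran from -1.41 to -1.02 in strong-loss and from -1.12 to -0.16 in weak-loss pairs, where F2 was lowest, and every list drawn overlapped between the classes.

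Genes of the cell cycle went the other way. Of 28 members, 24 had a difference above 0 and 9 were higher at an unadjusted p under 0.05, beside 1.48% of all genes, with a median of 0.54. In strong-loss pairs the median fold change was 0.50 and in weak-loss pairs 0.11. A total of 10 members were above 0 in all 5 strong-loss pairs and 1 in all 5 weak-loss pairs, beside 10.5% and 8.05% of all genes. Cdk1, the kinase that starts mitosis, was at 1.01, 0.88 and 0.80 in M2, F7 and F9 and at 0.07 and 0.24 in F5 and F6, against -0.19 to 0.31 in weak-loss pairs. The 3 pairs lowest for Glul were thus the highest for Cdk1. Ccnb1, the mitotic cyclin B1, differed by 0.62 ± 0.17 and Ccnf by 0.91 ± 0.27 (SE). Cdkn3, a phosphatase that acts on cyclin-dependent kinases, was at 0.23 to 1.12 in strong-loss and at -1.05 to 0.11 in weak-loss pairs without overlap, with a fitted difference of 1.28 ± 0.29 (adjusted p = 1.0 with edgeR and 0.0372 with DESeq2). Non-overlap with strong-loss pairs higher held for 0.16% of all genes. None of the helicase genes Mcm2 to Mcm7, which license replication, reached an unadjusted p under 0.05. The 9 that did were Ccna2, Ccnb1, Cdk1, Cdc20, Plk1, Aurkb, Birc5, Foxm1 and Cdkn3. That count was 2 without M2, 3 without F7 and 15 without F5. In the second code style alone the list median was 0.18 with 1 member higher.

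Myc itself was higher in tumour by 0.02 to 0.78 in all 5 strong-loss pairs and ran from -0.02 to 0.64 in weak-loss pairs. The fitted class difference was 0.16 ± 0.24 (SE, adjusted p = 1.0, edgeR), and its sign turned in the second code style alone (-0.28) and with a tissue by code style term (-0.0005). For 24 Myc target and ribosome biogenesis genes the median was 0.20 in strong-loss and 0.21 in weak-loss pairs. Lipid and cholesterol synthesis genes had a median difference of 0.24 over 22 members, with 5 higher at an unadjusted p under 0.05, beside 1.48% of all genes. The median was -0.03 without F2, F5 and F6. Acly, which makes acetyl-CoA for lipid synthesis, was slightly above 0 in every strong-loss pair (0.05 to 0.58) and was below 0 in every weak-loss pair (-0.33 to -0.06), with a fitted difference of 0.58 ± 0.19.

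Several genes outside these lists were named after their values were seen, because DESeq2 called them or their unadjusted p was smallest. Lhpp, a histidine phosphatase described as a liver tumour suppressor, (chromosome 7, 132610614 to 132706420) went from 15.1 to 2.36 CPM in M2, from 31.6 to 6.18 in F7, from 29.9 to 8.28 in F9, from 5.06 to 1.63 in F5 and from 22.8 to 8.95 in F6. In weak-loss pairs its differences were -0.57 to -0.14, so the classes did not overlap. The fitted difference was -1.57 ± 0.27 (SE, adjusted p = 0.588 with edgeR and 0.000497 with DESeq2). Serpina3k, a secreted protease inhibitor, differed by -2.13 ± 0.47 (adjusted p = 1.0 with edgeR, 0.00384 with DESeq2) and went from 1247 to 52.9 CPM in M2. Nid2, a basement membrane protein, was at 0.41 to 1.43 in strong-loss and -0.15 to 0.53 in weak-loss pairs, with a fitted difference of 0.98 ± 0.20. Nox4, an NADPH oxidase, differed by -2.81 ± 0.61 but was lowest in M2, with -2.45 in F7 and -1.62 in F9 against -0.10 in F5 and -0.78 in F6.

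Serpina1e, one of several near-identical alpha-1-antitrypsin genes, rose in every strong-loss pair, by 2.04 to 3.03, and was below 0 in 4 weak-loss pairs, at -1.53 in F11, -0.58 in M1, -0.56 in F2 and -0.06 in F3. F8 was the exception among weak-loss pairs, at 2.18. All 4 pairs between the classes were below 0 too (-1.38 to -0.49). The fitted difference was 2.69 ± 0.56 (SE, adjusted p = 1.0, edgeR), and without F8 it was 3.19 ± 0.32 with an adjusted p of 0.00969 (edgeR), the 1 gene called in that fit. That fit leaves out the only weak-loss pair inside the strong-loss range, so its call was not read as support for the difference.

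**Figure D4:**
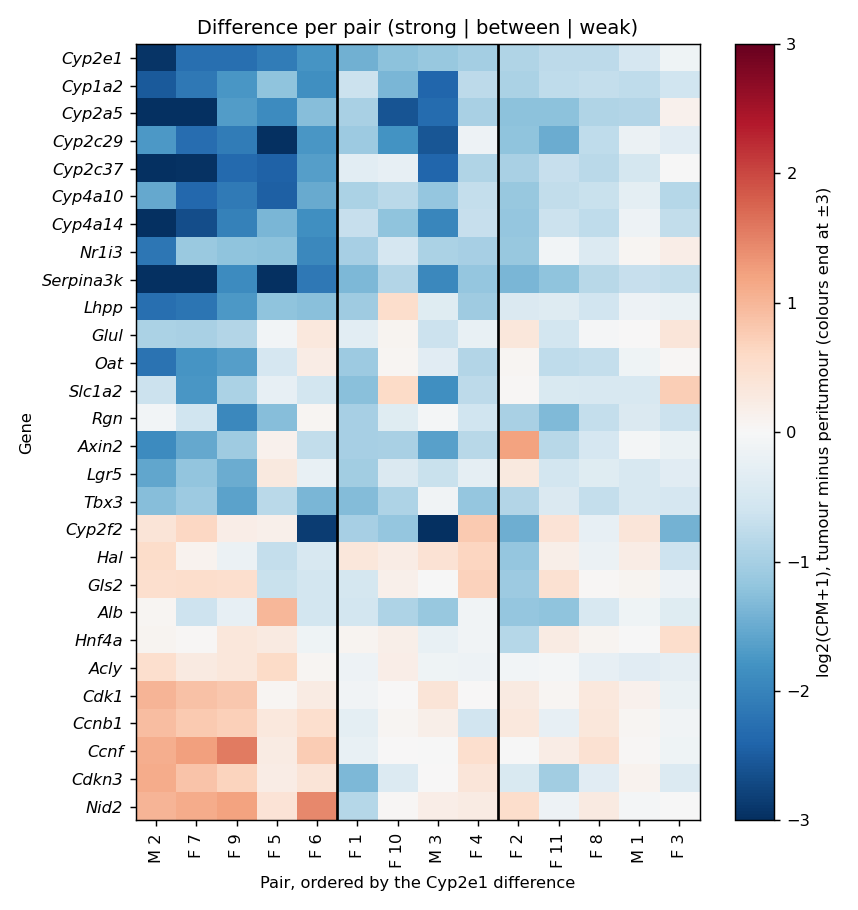
Tumour minus peritumour log2(CPM+1) of 28 genes (rows) in the 14 pairs (columns) ordered by the Cyp2e1 difference, with colours ending at ±3 and lines between the classes. Nr1i3 and the P450 genes other than Cyp2f2 are blue across all 5 strong-loss pairs (Cyp1a2 at -2.52 to -1.20). The periportal P450 Cyp2f2 ran from -2.85 to 0.63 in these pairs. Glul, Oat and Axin2 are blue in M2, F7 and F9 and pale or mixed in F5 and F6.

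The tissues were also compared one at a time, to see on which side the classes part. In peritumour tissue no gene passed an adjusted p of 0.05 between strong-loss and weak-loss pairs, DESeq2 called 0, and 1.47% of genes had an unadjusted p under 0.05. In tumours no gene passed with edgeR either, DESeq2 called 81, and 9.67% had an unadjusted p under 0.05. In tumours 17 of 34 P450 members and 14 of 22 pericentral members were lower at that level, against 2 and 0 in peritumour tissue, beside 5.11% and 0.722% of all genes. Most members were nonetheless lower in strong-loss pairs in peritumour tissue too. There 30 of 34 P450 members were below 0 (median -0.51), against 31 in tumours (median -1.16). Of the pericentral members, 21 of 22 were below 0 in each tissue (medians -0.39 and -1.24). Of all 13708 genes, 6071 were below 0 in peritumour tissue and 7027 in tumours. Nr1i3 was at 49.3 to 67.5 CPM in strong-loss and 48.2 to 66.3 CPM in weak-loss peritumour tissue, and its tumours differed by -1.46 ± 0.29 (SE, adjusted p = 0.0687, edgeR). Without F2 that adjusted p fell below the threshold. Nid2 (1.32 ± 0.25), Nox4 (-3.68 ± 0.64), Pck1 (-2.32 ± 0.46) and the amino acid transporter Slc7a7 (0.92 ± 0.17) had adjusted p values from 0.0663 to 0.0728 in tumours, each under the threshold without F5. Without F2, F5 and F6 the tumours differed in 238 genes, 165 of them lower in strong-loss pairs (edgeR).

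Within the strong-loss pairs, tumour against peritumour called 58 genes higher (0.423%) and 140 lower (1.02%) at the adjusted threshold with edgeR, and within the weak-loss pairs it called none, with 7.24% at an unadjusted p under 0.05 and 15 called by DESeq2. That contrast of counts is not itself a test, and the test of the difference is the one above, which called no gene with edgeR. The strong-loss pairs were chosen for a deep fall of Cyp2e1, so genes that go with it may lean towards a fall in this test too. A p within these pairs therefore describes these pairs only. Of the P450 list, 17 of 34 members fell and none rose in strong-loss pairs. The members with the largest falls were Cyp2c50 (-3.37 ± 0.55), Cyp2c54 (-3.23 ± 0.46), Cyp2b10 (-2.84 ± 0.62), Cyp2c37 (-2.79 ± 0.28) and Cyp2a5 (-2.63 ± 0.51), all log2 ± SE. Cyp7a1, the rate-limiting enzyme of bile acid synthesis, and Cyp27a1, of its alternative route, fell by 1.99 and 1.27. Cyp3a11, the most abundant P450 of the list, fell by 1.75.

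Of the pericentral list, 8 of 22 members fell in strong-loss pairs, among them Tbx3 (-1.46 ± 0.19, adjusted p = 0.00515), Slc1a2, Gulo and Rhbg, while Glul (-0.55 ± 0.19, adjusted p = 0.144), Oat (adjusted p = 0.0555) and Axin2 (adjusted p = 0.0943) did not pass (edgeR). Of the periportal list 2 of 17 fell (Pck1 and Pigr), beside 1.02% of all genes. The largest falls, named after their values were seen, included the major urinary proteins Mup10 (-3.83 ± 0.52) and Mup20 (-2.47 ± 0.28) and the protease inhibitor Serpina3k (-3.16 ± 0.36). The major urinary proteins are male-biased in liver, and of 16 male-biased genes 4 fell, with a median of -1.74. Of 17 female-biased genes 3 fell, with a median of -0.90, and the lists were not tested against each other. Of 21 acute phase genes 5 fell, including Hamp, the iron hormone hepcidin (-1.90 ± 0.31).

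Rises within strong-loss pairs, where 0.423% of all genes were called higher, included the cell cycle members Ccnb1 (0.63 ± 0.12) and Foxm1 (0.78 ± 0.16). They were the only 2 of the 28 in that list that passed. Outside that list, and named after their values were seen, the genes that rose included the cyclin Ccnf (0.97 ± 0.19), the phosphatase Cdc25b (1.38 ± 0.24), separase Espl1 (1.09 ± 0.20) and Racgap1 (1.01 ± 0.20). Serpina1e rose by 2.45 ± 0.40, the gut epithelial gene Inava by 2.04 ± 0.32 and Jchain, the joining chain of IgA and IgM, by 1.47 ± 0.29. Jchain was the only 1 of 7 B and plasma cell markers that passed. Of these 7, 4 lay below 0 and 3 above it within strong-loss pairs (median -0.03). In the lipid list Srebf2, the regulator of cholesterol synthesis, rose by 0.67 ± 0.14, 1 of 22. Each of these rises apart from Inava lost its call without M2, and all of them lost it without F7 or without F9. The count itself was 35 without F7, 49 without F9 and 67 without M2, and it was 1706 without F2, F5 and F6. The 10 fits that left out 1 pair kept the classes chosen by Cyp2e1. Of the 198 genes, 26 passed in every one of these fits. These were 24 falls, among them 8 P450 members (Cyp1a2, Cyp2c29, Cyp2c37, Cyp2d9, Cyp3a11, Cyp3a25, Cyp4a10 and Cyp4a14), Nr1i3, Tbx3, Lhpp, Mup10, Mup20 and Serpina3k, and 2 rises, Nid2 and the surface antigen Ly6c1. The other falls named here lost their call without at least 1 of M2, F7 and F9.

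Other cell types were read from their markers. Cholangiocyte and progenitor markers had a difference below 0 in 14 of 14 members (median -0.88), 1 of them at an unadjusted p under 0.05, beside 1.71% of all genes. F2 had a median of 2.65 in its pair, and the other 9 pairs were at -1.94 to 0.99. Stellate cell and fibroblast markers were below 0 in 18 of 19 (median -0.43) with none at that level. Here F2 had a median of 1.16 in its pair, while the other 4 weak-loss pairs, at -0.53 to 0.10, lay inside the range of the strong-loss pairs (-1.40 to 0.84). Kupffer cell markers had a median fold change of -0.91 in strong-loss and -0.62 in weak-loss pairs. Of these markers 1 of 10 (Clec4f, -1.33 ± 0.24, edgeR adjusted p = 0.0206) passed in strong-loss pairs, beside 1.02% of all genes called lower. Summed stellate cell markers were at 551 to 2081 CPM in strong-loss and 631 to 1976 CPM in weak-loss tumours, Kupffer cell markers at 348 to 881 and 327 to 601 CPM, and T cell markers at 10.6 to 37.7 and 11.3 to 57.2 CPM. Their part in the hepatocyte differences was not tested.

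Over all 14 pairs, the 4 between the classes included, the genes whose differences ran most like those of Cyp2e1 were ranked by Pearson's r among 9115 genes with a mean of at least 10 CPM. Predicted genes, such as those with Gm or Rik symbols, were left out of this ranking. These correlations are a description, since the pairs were chosen along the same axis and each pair shares its libraries over genes. Serpina3k came first (r = 0.891, and 0.795 without the most extreme pairs M2 and F7), then Ppib, a folding enzyme of the endoplasmic reticulum (0.857), Cyp2c37 (0.852), the transporter Slc35b1 (0.848), Cyp4a14 (0.845), Nr1i3 (0.841) and Lhpp (0.832). Ppib moved very little, from -0.22 to 0.01 in strong-loss and 0.03 to 0.19 in weak-loss pairs. At the other end were Acly (r = -0.884, and -0.847 without M2 and F7), the peroxiredoxin Prdx4 (-0.761), Cdk1 (-0.754, and -0.513 without them) and Ccnf (-0.734). M3, which lies between the classes at -1.13 for Cyp2e1, had differences of -2.38 in Cyp1a2 and Cyp2c37 and -2.57 in Cyp2c29, as deep as the strong-loss pairs.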

How the data were processed

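RNA was measured by sequencing mRNA of 28 liver libraries, 14 tumour and 14 peritumour. Per the file headers, the deposited table gives estimated counts for each gene in each library, of which 8.06% are not whole, and the authors' TPM values, used for ranks of Cyp2e1. Per the submitters' processing notes, the tools were RSEM 1.2.12, HISAT2 2.0.4, DESeq2 1.4.5 and Bowtie2 2.2.5, with no role named. The chromosome accessions in the deposited table are those of GRCm38. The strand protocol was not given in the sources used here. Reads of antisense partners cannot be told apart. The 9 columns of a further group, Li, were not used.

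Of 18182 genes, 13709 passed edgeR's filterByExpr over tissue and class, and 13708 were tested, since Cyp2e1, which chose the pairs, got no test. Counts were rounded. Fits used edgeR 4.0.16 in R 4.3.3 with TMM factors (0.764 to 1.36), a robust quasi-likelihood fit, the pair as a block and p-values adjusted by Benjamini-Hochberg over the tested genes (threshold 0.05). Single-tissue comparisons had code style as a covariate in place of the block. DESeq2 1.42.0 and limma 3.58.1 were alternatives. Pairing came from the shared sample code: deviations of both libraries from their group means were correlated in each of the 10 pairs (0.192 in F2 to 0.643 in F8). Among peritumour libraries of its class, the best match of the tumour was its own partner in 9 pairs, and that of M1 for F2. On simulated data the class comparison recovered 28% of genes changed by a log2 difference of 1, 76% at 1.5, 90% at 2 and 100% at 3, with 7 false calls among 154 (13668 genes). The simulation changed 50 genes at each size together, which eases the adjusted threshold, and drew noise for each gene on its own. In the data Cyp2c37, at -2.12, had an adjusted p of 0.588 (edgeR), so the simulated rates may be higher than those of the real comparison.

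Ranges and values per pair are log2(CPM + 1) in tumour minus peritumour tissue, with a pseudocount of 1, while differences with an SE are fitted. The rule for named genes took list members and the largest changes past the threshold. It named none in the class comparison, so genes named there, and the largest changes within strong-loss pairs, were added after values were seen. The pairs and the 51 gene lists were chosen with earlier results of these data known. Promoter sequences are RefSeq's. Some items are not reported here.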

Additional observations from a re-analysis of the deposited data

Results flagged for a closer look

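For 50 genes with printed values, Cyp2e1 left out because it chose the classes, each class of 5 pairs was examined for a pair far from the others, 100 groups in all. Chance marks about 1 in 20 groups, but these genes share the same pairs and many were named for their values, so the number marked was not read against chance. In the weak-loss pairs, F3 stood apart for Cyp2a5, with a tumour minus peritumour difference of 0.1272 against -1.24 to -0.88 in the other 4 pairs. In the strong-loss pairs, F5 stood apart for Racgap1, at 0.3264 against 1.08 to 1.33.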

How the results depend on the processing

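The class comparison called 0 genes in the main fit and in the alternatives run (438 genes at an unadjusted p under 0.05 in the main fit), except 10 with DESeq2 and 1 without F8, so leaving out 1 pair gave 0 to 1. Without the replicate block it also called 0, with 228 at an unadjusted p under 0.05, and without F2, F5 and F6 it called 0 with 1661. The classes share no animals, and single-tissue fits have no pairs to block. Peritumour tissue gave 0 in every alternative. For tumours alone, DESeq2 called 81, no filter 3 and the fit without F2, F5 and F6 238, and leaving out 1 pair gave 0 to 25. Within strong-loss pairs, 198 calls became 1117 with DESeq2, 52 in F pairs alone, 1706 without F2, F5 and F6 and 108 in the second code style alone, and leaving out 1 pair gave 35 to 503, the highest without F2 (409 without F5, 308 without F11). Within weak-loss pairs DESeq2 called 15 and the other alternatives 0. The Myc class difference, 0.16, turned to -0.0005 with a tissue by code style term and to -0.2764 in the second code style alone; the cause was not tested. Scaling by library size alone moved the median of all genes in peritumour tissue from 0.03 to 0.18. The first code style, with 1 strong-loss pair, was not fitted on its own. With 5 pairs a class, differences near a log2 of 1 were mostly not detectable in simulation.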
